A study of Mus musculus with 6 samples.

Results

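A set of 10 microRNAs (miRNAs) known as markers of organs other than the kidney was followed in whole mouse kidney at 2 ages. It holds the liver marker mmu-miR-122-5p, the striated muscle markers mmu-miR-1a-3p, mmu-miR-133a-3p, mmu-miR-133b-3p and mmu-miR-206-3p, the brain markers mmu-miR-9-5p, mmu-miR-9-3p and mmu-miR-128-3p, the islet marker mmu-miR-375-3p and the gonad marker mmu-miR-202-3p (the species prefix is dropped from here on). They were taken by name from the array design, with earlier results of these data known, and all 10 were found among its 1247 mouse miRNAs. The aged group was 3 kidney RNA preparations from 20-month-old male C57BL/6 mice, and the young group 3 from 2-month-old males of the same inbred strain, with no treatment or transgene named. One array with a single dye was used for each preparation. No label says which animal, or how many, a preparation came from, so the p-values cover variation among preparations, part of which may be technical. In RNA from whole tissue, fewer cells of a type and less RNA per cell cannot be told apart.

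A miRNA is a short RNA that guides the silencing machinery to messenger RNAs, mainly through pairing of its seed, bases 2 to 8. Some miRNAs are made almost wholly in 1 organ, and their signal in RNA of another tissue is used as a check of tissue identity and of carry-over from neighbouring tissue or other samples. miR-122 makes up much of the miRNA content of hepatocytes. miR-1, miR-133 and miR-206 are the muscle miRNAs, of which miR-206 is the one most restricted to skeletal muscle. miR-9 and miR-128 are abundant in neural tissue, miR-375 restrains insulin secretion in pancreatic beta cells, and miR-202 is best known from testis and ovary.

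The mature sequences of the members whose signal or contrast carries the results are shown 5′ to 3′, with the seed in capitals. They are RefSeq sequences on GRCm38.p6, where 6 of the 10 members were matched. The opposite arms miR-9-3p and miR-9-5p come from 1 hairpin with 3 gene copies, all on the plus strand, for which miR-9-3p lies at chr3:88215652-88215673 (Mir9-1), chr13:83738858-83738879 (Mir9-2) and chr7:79505318-79505339 (Mir9-3). miR-128-3p has 2 copies, at chr1:128202404-128202424 (plus strand) and chr9:112118644-112118664 (minus strand). miR-202-3p has 1 (chr7:139957695-139957716, minus strand), as has miR-206-3p (chr1:20679055-20679076, plus strand).
miR-9-3p: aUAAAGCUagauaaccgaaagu
miR-9-5p: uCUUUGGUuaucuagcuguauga
miR-128-3p: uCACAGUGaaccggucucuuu
miR-202-3p: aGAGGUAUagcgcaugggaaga
miR-206-3p: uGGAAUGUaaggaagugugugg

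These 5 seeds differ from each other. Among 1679 mature mouse miRNAs compared, the seed of miR-9-3p, miR-9-5p or miR-128-3p occurred in 0 others, and that of miR-202-3p in let-7j alone. The seed of miR-206-3p occurred in miR-6349 and miR-6382. None of these 3 seed-sharing miRNAs was well above background on every array. The 4 members without a matched sequence, including the muscle miRNA miR-1a-3p, were not part of this comparison. A seed shared with any of them would have been missed. The nearest sequence to miR-128-3p, miR-139-5p, differed from it by 7 edits (changed, added or lost bases) and was well above background on all 6 arrays. The nearest to miR-202-3p differed by 8 edits. miR-206-3p and miR-133b-3p lie 3757 bases apart on the same strand of chromosome 1, so both muscle miRNAs can come from 1 locus.

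The scanner software marks each spot as well above background or not, and a miRNA was counted as detected on an array where over 50% of the kept spots of at least 1 of its probes carried that mark. On this rule 201, 206 and 177 of the 1247 miRNAs were detected on the aged arrays and 209, 193 and 200 on the young arrays. Of the whole array 13.9% of miRNAs were detected on every array, 17.8% on at least 1 and 82.2% on none. Of 1000 negative control spots per array, 0 to 9 were marked well above background. Spot intensities were deposited without scaling between arrays. The scaling factor used here, the 75th percentile over probes detected throughout, ranged from 1171 to 2054 intensity units, highest on aged array 2. The number of arrays limits the precision.

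Of the 10 organ markers, 2 were detected on every array (miR-128-3p and miR-202-3p), 1 on some arrays (miR-1a-3p) and 7 on none. These counts stand near the shares of the whole array. By the scanner software's own flag per miRNA, 3 of the 10 were detected on every array and 5 on at least 1, beside 16.2% and 20.9% of all miRNAs. Per array, 3, 3 and 2 of the 10 were detected in aged kidney and 3, 2 and 3 in young kidney. Each member had 2 probes, and of these 20 probes 13 had 0 marked spots among 1480 kept spots over the 6 arrays.

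**Figure D1:**
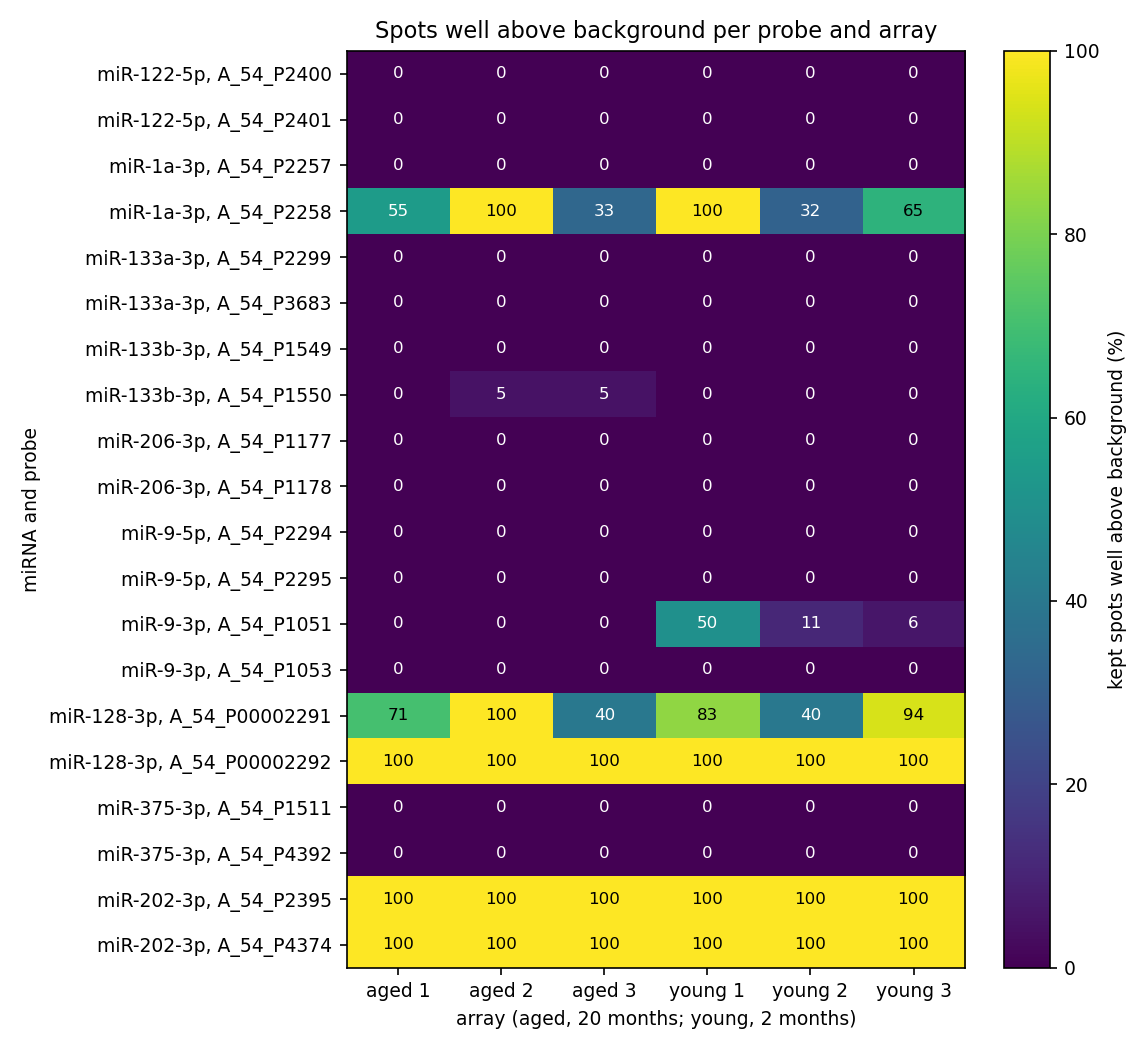
Share of kept spots marked well above background (colour and printed percent) for each of the 20 probes (rows, by miRNA and probe name) on each array (columns, aged left of young). Both probes of miR-202-3p and 1 of miR-128-3p stand at 100% on every array, 1 probe of miR-1a-3p varies between arrays of both ages, and 1 probe of miR-9-3p has marked spots on the 3 young arrays alone.

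Of 12 miRNAs known from kidney, all 12 were detected on every array. This list was chosen with earlier results of these data known. The renal miR-215-5p, which is not on it, was detected on 0 arrays. The 12 include the renal miR-192-5p and miR-194-5p, the tubular miR-204-5p, the Hox-cluster miR-10 and miR-196 forms and the epithelial miR-200 family. The dimmest of the 12, miR-204-5p, read 77.3 to 135 units, below the gonad marker miR-202-3p at 211 to 267 units. Several of the 12 are shared with other tissues, and no other tissue was measured here for comparison. Between ages 0 of these 12 passed the test described below (limma, adjusted p under 0.05), beside 7.77% of the 193 miRNAs tested. An unadjusted p under 0.05 was found for 1 of the 12, miR-194-5p (0.0207), beside 25.4% of those tested. Markers of blood and vessel cells were likewise present, since erythroid miR-451a and miR-144-3p, smooth muscle miR-143-3p and endothelial miR-126-3p were detected on every array, as were 3 of 4 leukocyte miRNAs. The fourth, miR-150-5p, was detected on 2 aged and 2 young arrays. By limma 0 of the 7 tested among these passed, beside 7.77% of all tested miRNAs, and 5 had an unadjusted p under 0.05, beside 25.4%. Of these 5, leukocyte miR-142-3p and miR-223-3p stood at 0.46 and 0.55 (log2, aged minus young), and miR-451a, miR-144-3p and miR-143-3p at -0.34, -0.73 and -0.27.

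**Figure D2:**
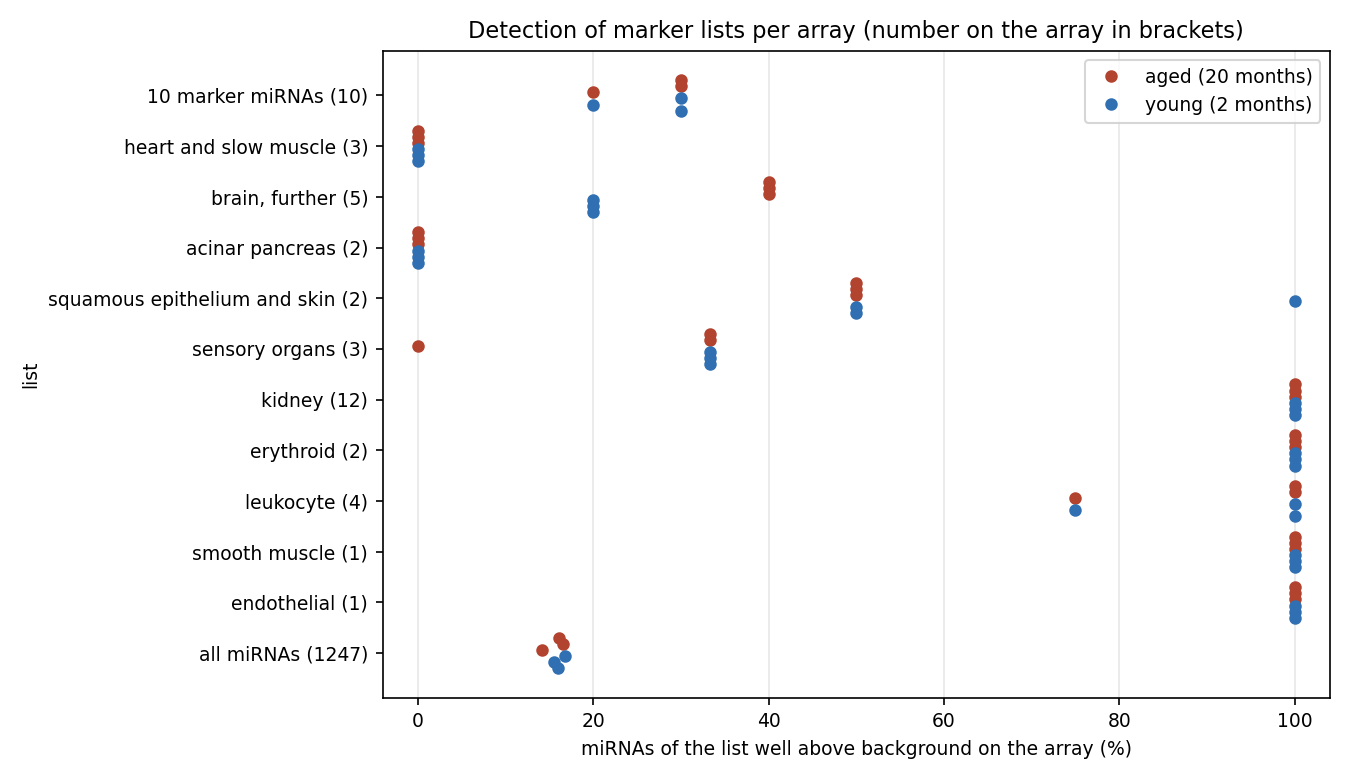
Percent of each marker list well above background (x axis) on each aged (red) and young (blue) array, with the number of listed miRNAs on the array in brackets. The 12 kidney markers stand at 100% on all 6 arrays, the 10 organ markers at 20% or 30%, and all 1247 miRNAs between 14.2% and 16.8%.

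The liver marker miR-122-5p was at background on every array. Its summed intensity, the mean over kept spots added over its 2 probes, was 13.2, 16.7 and 9.24 units in aged kidney and 24.1, 11.9 and 8.63 units in young kidney. The groups overlapped, and 0 of its 116 kept spots in aged and 0 of its 115 in young kidney were marked. The median negative control spot stood at 2.36 to 3.34 units across arrays, with an upper limit (median plus 3 median absolute deviations) of 19.2 to 24.7 units, and neither probe of miR-122-5p exceeded it on any array.

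Of the muscle markers, miR-1a-3p gave a weak signal at both ages, from a single probe. Its summed intensity was 37.9, 61.7 and 40.4 units in aged kidney and 61.4, 35.3 and 44.8 units in young kidney, with overlapping groups. The probe A_54_P2258 had 11 of 20, 19 of 19 and 6 of 18 kept spots marked in aged kidney, and 19 of 19, 6 of 19 and 11 of 17 in young kidney. The other probe, A_54_P2257, had 0 marked spots of 114. The miRNA was thus detected on 2 aged and 2 young arrays and close to the detection limit on the others, and it did not enter the test. Its mean scaled level (log2) was -5.00 ± 0.05 in aged and -4.78 ± 0.29 in young kidney (SD, n = 3 each), a difference of -0.22 without a test, which was -0.087 without young array 1 and -0.37 without young array 2. That difference was 0.20 when all probes set the 75th percentile, a scaling under which the median over all tested miRNAs was 0.33 and not -0.08, and 0.06 under quantile normalization.

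The other muscle markers gave no detected signal. miR-133a-3p, which is made from the same primary transcripts as miR-1a, stood at 7.17, 12.6 and 6.33 units in aged kidney and 14.0, 4.74 and 8.24 units in young kidney. miR-133b-3p stood at 16.2, 27.3 and 20.1 units in aged kidney and 31.1, 11.9 and 17.2 units in young kidney, with 2 of 117 and 0 of 114 kept spots marked. Both overlapped between ages. The scanner software's own flag per miRNA, which is a separate call from the marks on spots, gave miR-133b-3p as detected on aged array 2 and young array 1.

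miR-206-3p, the marker most restricted to skeletal muscle, had 0 marked spots at either age. Its intensity was 23.3, 10.5 and 8.25 units in aged kidney and 27.9, 21.1 and 17.2 units in young kidney. Neither probe exceeded the negative control limit on any array. Within these background readings, all 4 arrays of slide row 1 (the young arrays and aged array 1) stood above the 2 of row 2 (aged arrays 2 and 3). How often other undetected miRNAs showed this order was not counted. The part of the position in this pattern was not tested. The heart and slow muscle miRNAs miR-208a-3p, miR-208b-3p and miR-499-5p, listed in addition, were detected on 0 arrays, with summed intensities of -6.54 to 12.1 units.

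**Figure D3:**
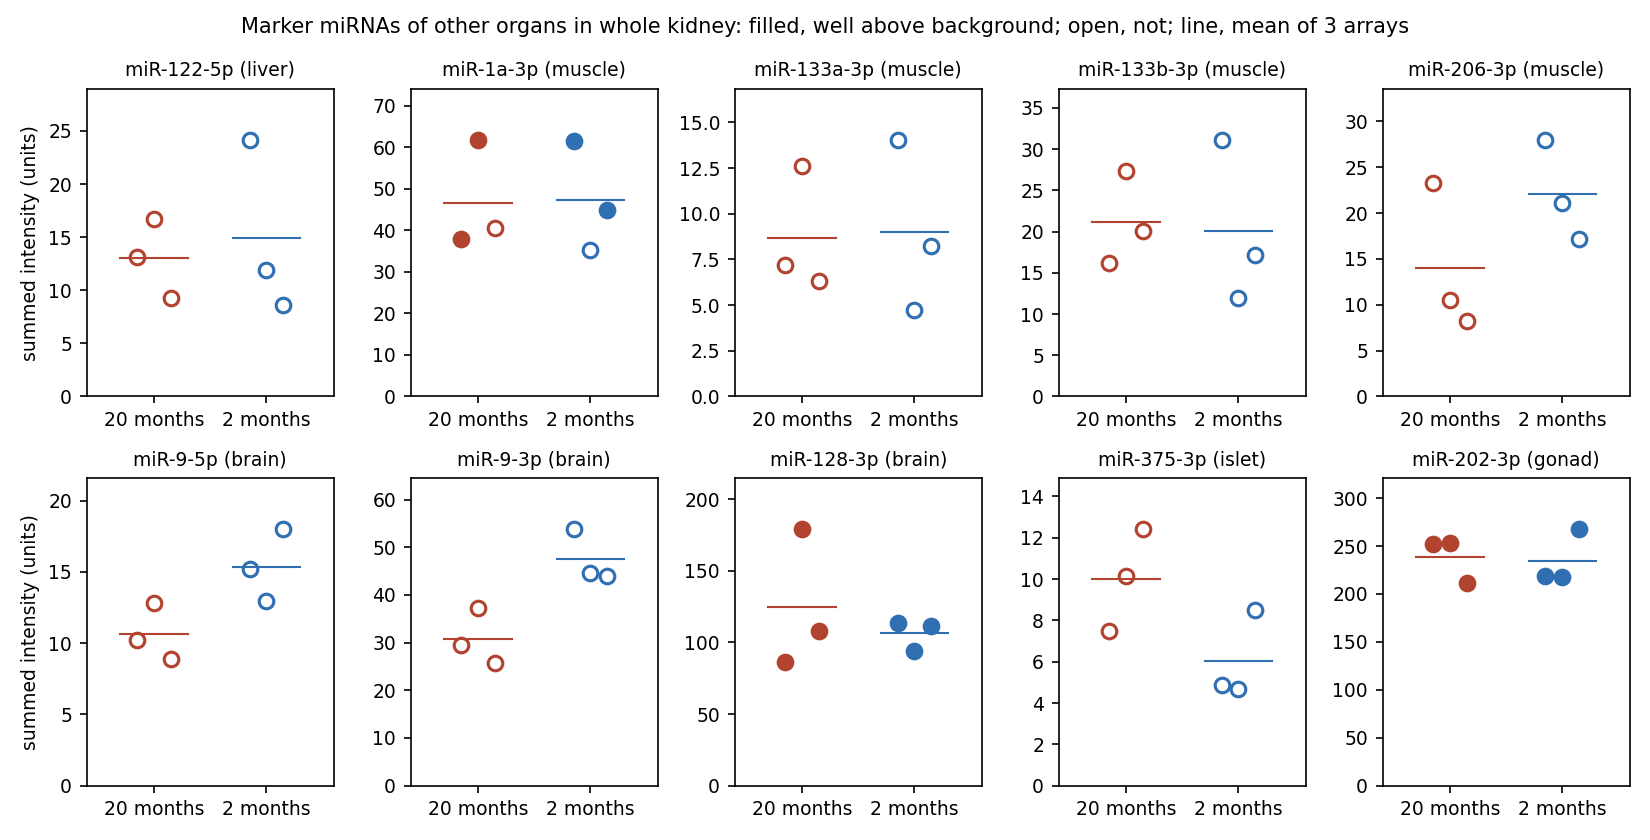
Summed intensity (y axis, from 0 and different in each panel) of the 10 marker miRNAs on the aged (20 months, left) and young (2 months, right) arrays. Filled points are well above background, open points are not, and lines are means of 3 arrays. The aged points of miR-9-3p, at 25.8 to 37.3 units, lie below the young ones, at 44.0 to 53.7 units, and those of miR-128-3p, miR-202-3p and miR-1a-3p overlap with the young ones.

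The brain marker miR-128-3p was detected on every array and did not pass the test of age. Its summed intensity was 86.7, 179 and 108 units in aged kidney and 114, 94.2 and 111 units in young kidney, highest on aged array 2, whose scaling factor was also the highest. After scaling its level (log2) was -3.76, -3.52 and -3.57 in aged kidney and -3.64, -3.67 and -3.42 in young kidney, and the groups overlapped. The difference was -0.04 ± 0.11 (log2, aged minus young, SE, n = 3 each; 95% interval -0.30 to 0.22, or 0.815-fold to 1.16-fold; limma adjusted p = 0.84). Of its probes, A_54_P00002292 had 113 of 113 kept spots marked and A_54_P00002291 had 79 of 112. The sign turned under other scalings, with 0.37 when all probes set the 75th percentile, 0.16 for quantile normalization and 0.10 for the median of detected probes.

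The gonad marker miR-202-3p had the fullest detection of the 10, with 106 of 106 kept spots marked in aged and 109 of 109 in young kidney. The opposite arm, miR-202-5p, was detected on 0 arrays. The summed intensity of miR-202-3p was 253, 253 and 211 units in aged kidney and 218, 218 and 267 units in young kidney. Unlike that of miR-128-3p, it was not highest on aged array 2, whose scaling factor was the highest. After scaling the level of miR-202-3p (log2) was -2.21, -3.02 and -2.60 in aged kidney and -2.70, -2.47 and -2.16 in young kidney, with overlapping groups. The difference was -0.17 ± 0.23 (log2, aged minus young, SE, n = 3 each; 95% interval -0.73 to 0.39, or 0.602-fold to 1.31-fold; limma adjusted p = 0.664). Without aged array 2 it was 0.032, and within slide row 1, where aged array 1 stands against the 3 young arrays, it was 0.23 (limma adjusted p = 0.463). The sign also turned when all probes set the 75th percentile (0.24) and under quantile normalization (0.018). The scanner software left out more outlier spots of this miRNA on aged array 1, where 30 spots were kept, and on young array 3, where 32 were, than on the other 4 arrays, where 37 to 39 were kept.

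Aged and young levels were compared with limma over the 193 miRNAs detected on all 3 arrays of at least 1 group. Only 2 of the 10 members entered, so a count over them says little. By limma 0 of the 2 passed an adjusted p of 0.05, beside 7.77% of all tested miRNAs, 8 higher (4.15%) and 7 lower (3.63%) in aged kidney. An unadjusted p under 0.05 was found for 0 of the 2, beside 25.4% of all tested miRNAs. Aged and young values did not overlap for 0 of the 2, beside 10.4% of all tested miRNAs higher and 20.2% lower in aged kidney. Under other scalings the limma calls, 8 higher and 7 lower, split into 18 higher and 3 lower with the median of detected probes, 13 and 1 under quantile normalization and 10 and 0 in the authors' processed values. The median difference was -0.11 over the 2 members and -0.08 over all tested miRNAs.

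**Figure D4:**
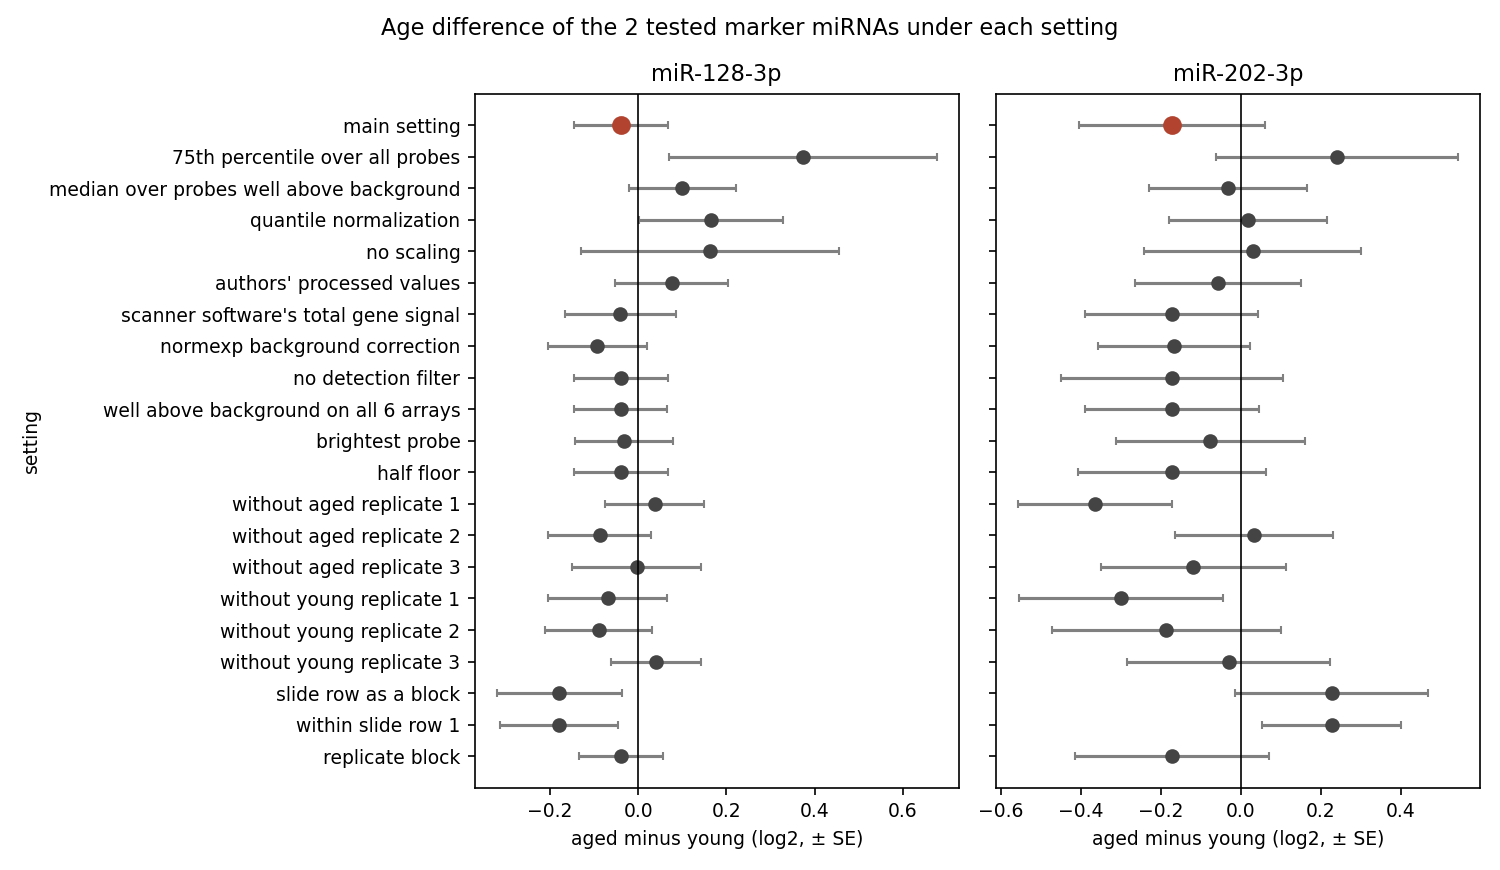
Difference in scaled level (log2, aged minus young; bars are ± SE of limma) of miR-128-3p and miR-202-3p under the main setting (red, top) and each alternative (grey). Points of both miRNAs lie on either side of 0, from -0.18 to 0.37 for miR-128-3p and from -0.36 to 0.24 for miR-202-3p.

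The brain marker miR-9-3p was not detected at either age, and its dim signal was lower on every aged array than on every young one. Its summed intensity was 29.4, 37.3 and 25.8 units in aged kidney and 53.7, 44.6 and 44.0 units in young kidney. The probe A_54_P1051 read 18.3, 23.0 and 15.7 units in aged kidney and 34.3, 27.8 and 25.7 units in young kidney. The probe A_54_P1053 read 11.2, 14.3 and 10.04 units in aged kidney and 19.4, 16.8 and 18.3 units in young kidney. On both probes every aged array lay below every young one. Probe A_54_P1051 exceeded the negative control limit on 1 aged and 3 young arrays, and A_54_P1053 on 0.

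On the rule for detection, miR-9-3p was detected on 0 arrays of either age. Of its kept spots 0 of 112 in aged kidney and 13 of 111 in young kidney were marked, 10 of them on young array 1, where exactly 10 of the 20 spots of probe A_54_P1051 were marked. The scanner software's own flag took it as detected on 0 aged and 3 young arrays. Among all 1247 miRNAs it was the 1 with that pattern of flags (0.0802%). On the rule for detection, which miR-9-3p did not meet, miR-551b-3p was detected on 0 aged and 3 young arrays. The exact two-sided permutation test of the scaled intensity of miR-9-3p gave p = 0.1, the smallest that 3 against 3 arrays allow. Of the 1025 miRNAs detected on 0 arrays, 4.1% had aged values wholly below young ones in the same measure and 7.8% wholly above.

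The aged values of miR-9-3p also lay below the young ones under the 4 other scalings and with the brightest probe alone. Within slide row 1 the only aged array, aged array 1, lay below the young arrays. Since neither age was well above background, no fold change is given. When every miRNA on the array was tested without a detection filter, miR-9-3p passed as lower in aged kidney (limma adjusted p = 0.00269), but its 3 aged values were then all set to the floor, so this p measures no spread in aged kidney. In the authors' processed values, which are on a log2 scale, miR-9-3p read -9.49, -10.10 and -9.20 in aged kidney, the value each of those arrays holds for undetected miRNAs, and -2.80, -2.91 and -3.03 in young kidney.

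The opposite arm, miR-9-5p, was dimmer, with 0 marked spots at either age. It stood at 10.2, 12.8 and 8.87 units in aged kidney and 15.2, 12.9 and 18.0 units in young kidney, with every aged array below every young one. The exact two-sided permutation test of its scaled intensity gave p = 0.1, the smallest possible. After scaling, the ages overlapped with the brightest probe alone and under 2 of the 4 other scalings. In unscaled intensity, probe A_54_P2295 overlapped between ages (0.812 to 5.41 units in aged, 2.37 to 5.40 in young kidney). Probe A_54_P2294 did not (7.05 to 9.42 and 9.78 to 14.9 units). Neither probe of miR-9-5p exceeded the negative control limit on any array.

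Of the 5 further brain miRNAs listed, miR-137-3p, miR-153-3p and miR-129-5p were detected on 0 arrays and miR-219-5p, known from oligodendrocytes, on all 6, with a difference of -0.15 ± 0.08 (log2, SE; limma adjusted p = 0.268). The neuronal miR-124-3p went the opposite way to miR-9-3p. It read 77.4, 151 and 87.8 units in aged kidney and -5.41, -9.32 and -7.62 units in young kidney, and it was the 1 miRNA of 1247 with the scanner software's flag on 3 aged and 0 young arrays (0.0802%). It entered the test through the aged arrays alone, being detected on 3 aged and 0 young arrays, and its young values were all set to the floor. Its limma adjusted p of 8.63e-05 therefore holds no spread in young kidney and is given as a description.

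The islet marker miR-375-3p was at background throughout. It read 7.49, 10.2 and 12.4 units in aged kidney and 4.90, 4.66 and 8.49 units in young kidney, with overlapping groups and 0 marked spots of 112 and 118. The acinar pancreas miRNAs miR-216a-5p and miR-217-5p were also detected on 0 arrays.

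Over the 15 further organ miRNAs listed, 2 were detected on every array (miR-219-5p and miR-203-3p), 3 on some (miR-124-3p, miR-96-5p and miR-205-5p) and 10 on none. Those on none include miR-182-5p and miR-183-5p, which were listed for sensory organs together with miR-96-5p. Of the 4 that were tested by limma, 1 was called higher in aged kidney, beside 4.15% of all tested miRNAs, and 0 lower. The 1 was miR-124-3p, which had entered through its aged arrays alone, so the count is not read further. The skin and epithelial miRNA miR-203-3p stood at 0.15 ± 0.10 (log2, aged minus young, SE; limma adjusted p = 0.351) and the sensory-organ miRNA miR-96-5p at -0.49 ± 0.17 (limma adjusted p = 0.124). The median difference of the 4 was 0.00, beside -0.08 over all tested miRNAs.

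One library stood apart in a marker of squamous epithelium. miR-205-5p, made in skin and other stratified epithelia, read -2.86, -2.31 and -4.13 units in aged kidney and 67.1, -1.43 and -3.20 units in young kidney, and was detected on young array 1 alone. Young array 1 was also the array with the highest summed intensity for 5 of the 7 organ markers detected on 0 arrays, namely miR-122-5p, miR-133a-3p, miR-133b-3p, miR-206-3p and miR-9-3p, and after scaling for 4 of the 7. This count was made after the values were seen. How often young array 1 was highest over all undetected miRNAs was not counted. That array also had more miRNAs detected (209) than any other, so the count is not read as a trait of the organ markers. The median negative control spot of young array 1 was 3.00 units, within the range of the other arrays. The difference of miR-9-3p between ages did not rest on this array, since the aged values also lay below those of young arrays 2 and 3.

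For the 2 members detected throughout, the most similar profiles over the 6 arrays were looked up among the other 192 tested miRNAs, as a description. Nearest to miR-128-3p were miR-20b-5p (Pearson r = 0.956), miR-196a-5p (0.955) and miR-30e-5p (0.933). Nearest to miR-202-3p were miR-212-3p (0.934), miR-1895 (0.896) and miR-6243 (0.859). These correlations rest on 6 arrays that share their scaling, and each nearest miRNA was picked from many.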

How the data were processed

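Per the file headers, the arrays (Agilent design 046065) were read with Feature Extraction 11.5.1.1. Spots were deposited as background-corrected intensity, without scaling between arrays. The authors' processed table, deposited on a log2 scale, matches the log2 total that Feature Extraction gives each miRNA, shifted by a single amount on each array (largest departure 1.02e-05); how that amount was chosen is unknown. Saturated spots numbered 0. Spots flagged as outliers were left out, intensity was averaged over a probe's spots, scaled by a 75th percentile (315 probes, those detected on every array), and added up for each miRNA. A floor of -5.22 (log2) was then set, the median of the dimmest detected probes of the arrays. The test of age was that of limma 3.58.1 (R 4.3.3; lmFit, eBayes, Benjamini-Hochberg adjustment), on all 6 arrays with age as the single term. The files hold median spot brightness, so normexp (offset 50) used that with the local background. The step was tested on simulated data. Within a group, 59.1% to 79.1% of probes detected on both arrays differed by more than the noise between spots, so no file was a copy of another; that arrays are separate preparations rests on the labels. The members, lists and tests were chosen with earlier results of these data known. All 10 members are named, with listed miRNAs that were detected or carry a count. Of the listed names, miR-142a-3p and miR-126a-3p stand in the design as miR-142-3p and miR-126-3p. The listed name miR-145-5p was not matched. The design holds miR-145a-5p, detected on 3 aged and 3 young arrays, whose level was not analysed here. Figures were drawn with matplotlib 3.10.9.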

Additional observations from a re-analysis of the deposited data

How the results depend on the processing

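The 2 members detected on every array numbered 2 or 3 under the other rules for detection. Members detected on at least 1 array numbered 5, against 3, with at least 1 marked spot, with the scanner software's flag and with the negative control limit, since miR-9-3p and miR-133b-3p were added. Of the members, 1 was called without a detection filter, miR-9-3p, and 0 under every other alternative run. The difference of miR-128-3p turned positive when all probes set the 75th percentile (0.37), the median of detected probes (0.10), quantile normalization (0.16), no scaling (0.16) and the authors' processed values (0.076), and ranged from -0.090 to 0.039 when single arrays were left out. That of miR-202-3p turned positive when all probes set the 75th percentile (0.24), under quantile normalization (0.018) and without scaling (0.030). It was also positive with slide row as a block (0.23) and within slide row 1 (0.23), which are the same estimate. Row 2 holds aged arrays only, so both set aged array 1 alone against the young arrays. The difference of miR-202-3p ranged from -0.36 to 0.032 when single arrays were left out. A change of the scaling factor alone moves the difference of every miRNA above the floor by the same amount. The median over all tested miRNAs, -0.08 in the main setting, was 0.33 when all probes set the 75th percentile. It was 0.06 with the median of detected probes and 0.12 without scaling. The cause of the other turns was not tested. The adjusted p of limma ranged from 0.422 to 0.998 for miR-128-3p and from 0.24 to 0.971 for miR-202-3p over 20 alternatives.

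Over all tested miRNAs 15 passed, against 2 without scaling, 9 with Feature Extraction's total per miRNA, 4 with normexp, 6 without a detection filter and 5 with slide row as a block. Leaving out single arrays gave 39 without aged array 1, 9 without aged array 2, 9 without aged array 3, 6 without young array 1, 5 without young array 2 and 8 without young array 3. With the replicate number as a block 3 passed, and 0 members did. Same-numbered arrays did not deviate together (correlations of deviations 0.12, -0.58 and 0.31), so the numbers were not taken as pairs. Of the 7 undetected members, 6 lay at the floor on every array and miR-9-3p on the 3 aged arrays, so those levels have only an upper bound.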
